A study of Mus musculus with 8 samples.

Results

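The genes described here are the core of the transforming growth factor beta (TGF-beta) pathway: the ligand gene Tgfb1, the receptor genes Tgfbr1, Tgfbr2 and Tgfbr3, the Smad genes Smad2, Smad3, Smad4 and Smad7, and the repressor genes Ski and Skil. They were chosen by symbol, and all 10 were found, each on 1 row, among the 14033 symbols of the authors' deposited table. RNA was measured in mouse fetal liver at stage E14.5, in embryos of mTmG reporter mice crossed to Flt3-Cre. The reporter gives red Tomato fluorescence in all cells, and Cre recombination replaces it with green GFP in a cell and its descendants. Cells without lineage markers that carried cKit, Sca1 and CD150, the surface profile of hematopoietic stem cells, were sorted into a Tomato+ fraction (no record of Flt3-Cre activity, 4 libraries) and a GFP+ fraction (a history of Flt3-Cre activity, 4 libraries). Both fractions came from the same kind of cross and differ in whether recombination had taken place. GFP thus marks past recombination by Flt3-Cre, in the cell or in an ancestor. A Tomato+ label does not mean that Flt3 was never expressed. RNA of Flt3 itself was present in both fractions, with mean normalized counts of 1617 for Tomato+ and 3753 for GFP+ (the authors' deposited table). The labels do not say how many embryos went into a library or whether libraries came from separate litters.

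TGF-beta ligands bind a type II receptor (Tgfbr2), which activates a type I receptor (Tgfbr1). The type I receptor phosphorylates Smad2 and Smad3, which join Smad4 and enter the nucleus to control transcription. Tgfbr3, also called betaglycan, is a coreceptor without kinase activity that presents ligand to the type II receptor, and it also binds inhibins. Smad7 blocks the type I receptor, and Ski and Skil (SnoN) bind Smad complexes in the nucleus and recruit corepressors. In the blood system the pathway is known as a restraint on stem cell proliferation.

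The coreceptor and 1 repressor were lower in the GFP+ fraction, and the central line of the pathway was at close levels in both. In the authors' deposited table, Tgfbr3 averaged 634 normalized counts over the Tomato+ libraries and 191 over the GFP+ libraries, 3.31-fold lower in the latter. For Ski the authors' deposited table gives averages of 630 in Tomato+ and 414 in GFP+, 1.52-fold lower. With a threshold of 0.05 on the authors' adjusted p, 2 of the 10 members were called, both lower in GFP+ and 0 higher. Among all genes tested, 7.49% of the 14268 rows were called, 2.64% lower and 4.86% higher in GFP+. When a log2 difference of at least 1 was also asked for, 1 member (Tgfbr3) was called, beside 3.45% of all rows. The median log2 difference (GFP+ minus Tomato+) of the 10 members was -0.039, beside 0.0095 over all rows. With 2 calls in a list of 10 chosen genes, the share is a description of these genes and not a test of the list. In bulk samples such as these, fewer cells of a type and less RNA per cell cannot be told apart.

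**Figure D1:**
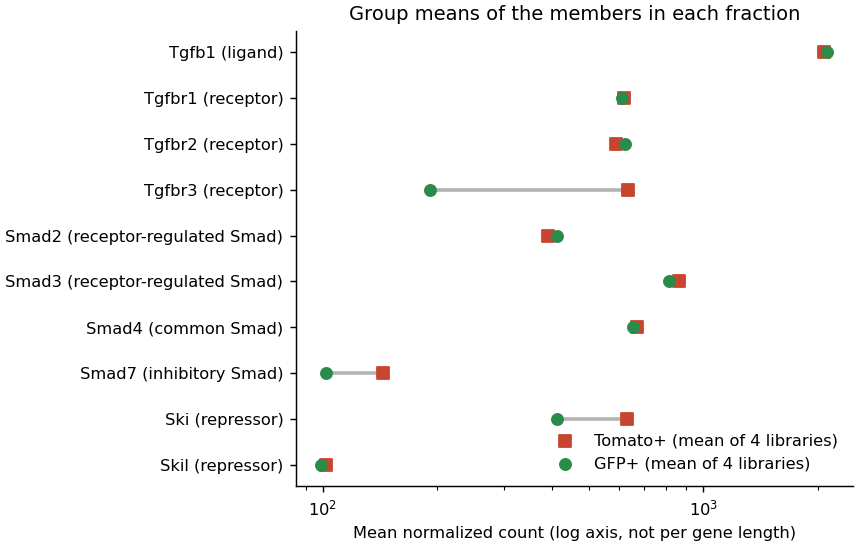
Mean normalized count of each member in the Tomato+ fraction (red squares) and the GFP+ fraction (green circles) on a log axis, each the authors' mean over 4 libraries, with no value per library at hand. Tgfbr3 (634 against 191) and Ski (630 against 414) are set apart between the fractions, Smad7 less so (144 against 102), and the symbols of the other 7 genes nearly touch.

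The table used here holds group means, a fold change and p-values, and no value for a single library. A standard deviation, the overlap of libraries between fractions and the depth per library can therefore not be given, and each adjusted p below is the authors' own, over all rows. The GFP+ means sum to a higher total, so that scaling both fractions to the same total would change every log2 difference by -0.16. The fractions also differed in cell type markers. The stem cell list (13 of 16 measured genes called, all lower in GFP+) and the lymphoid-primed list (12 of 14 called, all higher) moved apart, and the gene of the CD150 marker itself, Slamf1, averaged 119 in Tomato+ and 27.9 in GFP+, per the authors' deposited table. Of the other sort genes, Kit (cKit) averaged 4950 in Tomato+ and 4087 in GFP+ and did not pass (adjusted p = 0.187, the authors' deposited table). Ly6a (Sca1) averaged 70.1 and 59.5 and did not pass either (adjusted p = 0.872, the authors' deposited table).

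The ligand gene Tgfb1, whose product is made by many blood cells, had the highest mean of the members, also per length. In the authors' deposited table it averaged 2079 in Tomato+ and 2119 in GFP+, a difference of 1.94% of the Tomato+ mean. The log2 difference was 0.028 in the authors' deposited table, with an adjusted p of 1. Its sign turns when both fractions are scaled to the same total (-0.13) or when differences are centred on their median over rows averaging at least 50 (-0.0030). The overall mean of Tgfb1 was above that of 96.1% of all rows.

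Of the receptors, Tgfbr3 was called and the kinases were not. Tgfbr1, the type I receptor kinase, averaged 619 in Tomato+ and 610 in GFP+ per the authors' deposited table (log2 difference -0.022, adjusted p = 0.937). Tgfbr2, the type II kinase that binds ligand, averaged 588 and 622 per the authors' deposited table, a log2 difference of 0.081 with an adjusted p of 1, and -0.076 when scaled to the same total. Tgfbr3 had 30.2% of its Tomato+ mean in GFP+, a log2 difference of -1.73 with adjusted p = 1.13e-21 in the authors' deposited table. Its p-value was the 27th smallest of the 14268 rows, and the eighth smallest among the 376 rows called lower in GFP+. By size its fall was the 70th largest of those 376, whose median log2 difference was -1.11. Per kilobase of exon the coreceptor stood at 96.8 normalized counts in Tomato+, beside 94.8 for Tgfbr1 and 71.8 for Tgfbr2, and at 29.2 in GFP+, beside 93.4 and 76.0.

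Ratios between members within a fraction do not depend on how the fractions are scaled to each other. They are ratios of counts, not per length, so only their change between fractions is read. The Tgfbr3 mean was 1.08 times the Tgfbr2 mean in Tomato+ and 0.308 times in GFP+, a change in the ratio of -1.81 on the log2 scale. Against Tgfbr1 the Tgfbr3 ratio was 1.02 in Tomato+ and 0.313 in GFP+. The ratio of the kinases Tgfbr2 and Tgfbr1 was 0.949 and 1.02. No error can be put on these ratios, since each rests on group means.

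Of the Smads, none was called, and Smad2, Smad3 and Smad4 were within 6% of their Tomato+ mean on the authors' scale. With both fractions scaled to the same total, the log2 difference was -0.24 for Smad3 and -0.19 for Smad4. Smad2, a receptor-regulated Smad, averaged 391 in Tomato+ and 413 in GFP+ per the authors' deposited table (log2 difference 0.079, adjusted p = 0.953), and -0.078 when scaled to the same total. Smad3, the other receptor-regulated Smad of this branch, averaged 864 and 815 (log2 difference -0.084, adjusted p = 0.971, the authors' deposited table). Smad4, the common partner, averaged 670 and 652 in the authors' deposited table, a log2 difference of -0.038 with an adjusted p of 1. The inhibitory Smad7, itself a well known TGF-beta response gene, averaged 144 and 102 in the authors' deposited table. Its log2 difference of -0.50, 1.42-fold lower in GFP+, did not pass, with adjusted p = 0.870 and an unadjusted p of 0.393 in the authors' deposited table. In normalized counts the ratio of Smad7 to Smad3 was 0.125 in GFP+ and 0.167 in Tomato+, and that of Smad2 to Smad3 0.507 and 0.453.

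The nuclear repressors differed from each other in what was called. Ski had a log2 difference of -0.61 with adjusted p = 0.00712 in the authors' deposited table, at 65.7% of its Tomato+ mean. Skil, a paralog of Ski and a TGF-beta response gene, averaged 102 in Tomato+ and 98.9 in GFP+ per the authors' deposited table, a log2 difference of -0.040 with an adjusted p of 1. The ratio of Ski to Skil was 4.18 in GFP+ and 6.19 in Tomato+, and whether the change of Ski differs from that of Skil was not tested. The Ski mean was 0.940 times the Smad4 mean in Tomato+ and 0.634 times in GFP+. Among the 376 rows called lower in GFP+, Ski ranked 327th by size of its fall and 234th by p-value, so its fall was among the smaller ones. Ski is not called with a Bonferroni adjustment over all rows, and Tgfbr3 is.

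**Figure D2:**
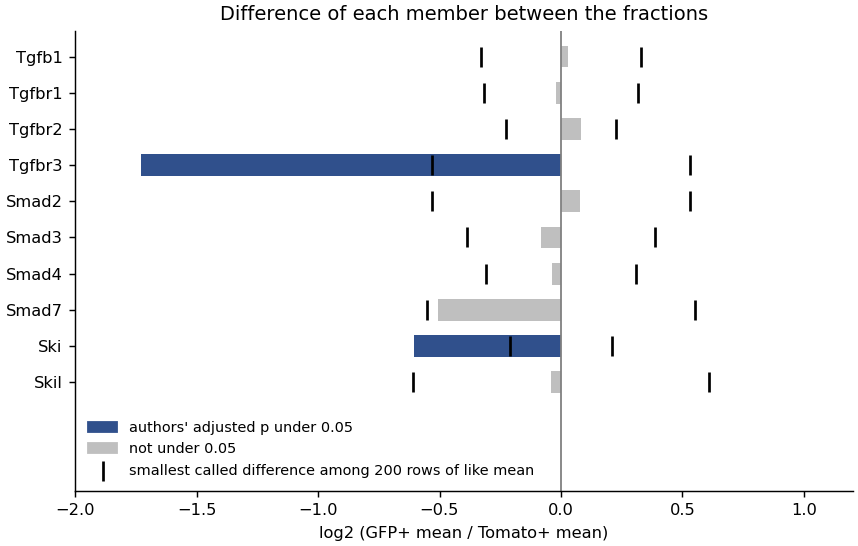
Log2 ratio of the GFP+ over the Tomato+ mean for each member (bars, blue where the authors' adjusted p is under 0.05), with black ticks at plus and minus the smallest absolute log2 difference called among the 200 rows nearest in overall mean. Tgfbr3 (-1.73) and Ski (-0.61) extend past their ticks, Smad7 (-0.50) ends just inside its tick at 0.55, and the other 7 bars lie within 0.1 of 0.

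What size of difference the authors' test called depends on the level of a gene, so each member was set beside the 200 rows nearest to it in overall mean. Near Tgfbr3 12 of these 200 rows were called, with a smallest absolute log2 difference of 0.53. Around Ski 14 were called, the smallest at 0.21, and the largest difference that was not called was 0.50. Around Smad7, 17 of 200 were called from 0.55 upwards and differences up to 0.91 were not, so the difference of Smad7 was below the smallest one called at its level. Around Skil the smallest called difference was 0.61. For Tgfb1, Tgfbr1, Tgfbr2, Smad2, Smad3 and Smad4 the smallest called differences ran from 0.23 to 0.53, all above the members' own differences of at most 0.084. Smaller changes of these genes are not excluded by the adjusted p.

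The 10 members had a median absolute log2 difference of 0.080. For the 8 that were not called it was 0.060, and for the 7 without Smad7 0.040. These 2 smaller sets leave out the largest differences by the way they were chosen, so their lower medians are not a result. Over the 8716 rows with an overall mean within the members' range, from 100.4 for Skil to 2099 for Tgfb1, 6.86% were called. Their median absolute log2 difference, called and not called together, was 0.157.

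**Figure D3:**
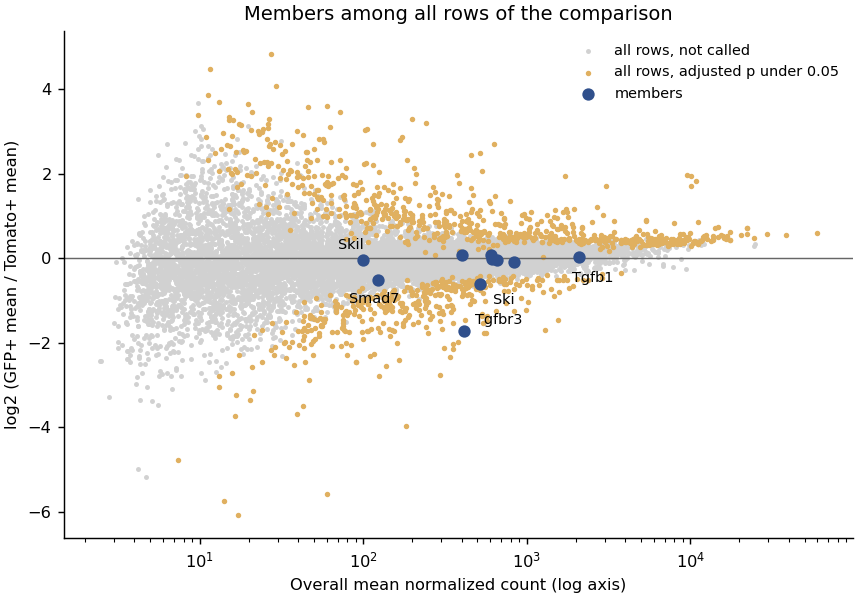
Log2 ratio of the GFP+ over the Tomato+ mean against the overall mean normalized count (log axis) for all 14268 rows, grey where not called and orange where the authors' adjusted p is under 0.05, with the 10 members in blue. Tgfbr3 lies well inside the band of rows called lower in GFP+, Ski lies at its inner edge, Smad7 is among rows that were not called, and the unlabelled members (Tgfbr1, Tgfbr2, Smad2, Smad3 and Smad4) lie near 0.

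Counts of different genes can be compared only per length. Divided by the merged exon length of each gene in GENCODE M21 (build GRCm38, not the mm9 used by the authors), the members had this order in Tomato+, in normalized counts per kilobase: Tgfb1 at 412, Smad4 at 180, Smad3 at 156, Ski at 113, Tgfbr3 at 96.8, Tgfbr1 at 94.8, Tgfbr2 at 71.8, Smad2 at 44.5, Smad7 at 31.9 and Skil at 10.5. In GFP+ Tgfb1 (420 per kilobase), Smad4 (176) and Smad3 (147) again led. Tgfbr1 (93.4), Tgfbr2 (76.0) and Ski (74.4) followed, and Tgfbr3 (29.2 per kilobase) now stood below Smad2 (47.0) and above Smad7 (22.5) and Skil (10.2). Tgfbr3 thus went from rank 5 to rank 8 of the 10 and Ski from rank 4 to rank 6. With the longest transcript in place of merged exons, a choice made after seeing the data, Tgfbr1 (107.6 per kilobase) and Tgfbr3 (104.1) change places in Tomato+ and the GFP+ order is the same. Whether neighbours in these orders differ beyond the spread of libraries cannot be judged from group means. Of the exon bases of the 10 genes, only Tgfbr3 shares any with another GENCODE gene, 4.54% of its bases with the predicted gene Gm43422 on the same strand.

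Of the 2 called members only Ski had an upstream sequence at hand, and Tgfbr3 had none. The sequence before the start of Ski is shown beside those of Tgfb1, Tgfbr2 and Smad3, which were not called, so that the called repressor can be compared with a ligand, a receptor and a Smad. Each is the 250 bases before the annotated start, 5′ to 3′ on the gene's strand, from RefSeq (build GRCm38.p6), where 5 of the 10 members had an entry: Ski at chr4:155222536-155222785, minus strand; Tgfb1 at chr7:25686752-25687001, plus strand; Tgfbr2 at chr9:116175364-116175613, minus strand; Smad3 at chr9:63757995-63758244, minus strand. Capitals mark matches, on either strand, to any of 4 motifs. The Smad half-site was searched as CAGAC, and a GC-rich Smad motif was searched as GGCGC. The core of the Ets factors was searched as CCGGAA, and for GATA factors the core AGATAA was used.
Ski: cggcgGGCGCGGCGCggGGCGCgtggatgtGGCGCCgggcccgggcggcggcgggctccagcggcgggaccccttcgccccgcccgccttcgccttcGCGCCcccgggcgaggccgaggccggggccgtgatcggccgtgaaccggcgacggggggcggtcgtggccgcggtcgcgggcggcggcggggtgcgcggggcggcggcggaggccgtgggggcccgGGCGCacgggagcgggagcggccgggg
Tgfb1: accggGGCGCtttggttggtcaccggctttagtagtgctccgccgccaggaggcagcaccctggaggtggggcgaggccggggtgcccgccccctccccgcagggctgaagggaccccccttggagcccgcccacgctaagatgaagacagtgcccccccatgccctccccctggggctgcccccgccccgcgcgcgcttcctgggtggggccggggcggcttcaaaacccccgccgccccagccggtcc
Tgfbr2: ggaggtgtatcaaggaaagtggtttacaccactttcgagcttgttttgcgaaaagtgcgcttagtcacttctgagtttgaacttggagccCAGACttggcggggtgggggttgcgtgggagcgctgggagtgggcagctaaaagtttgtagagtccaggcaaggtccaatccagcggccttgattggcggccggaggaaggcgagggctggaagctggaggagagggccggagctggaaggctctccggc
Smad3: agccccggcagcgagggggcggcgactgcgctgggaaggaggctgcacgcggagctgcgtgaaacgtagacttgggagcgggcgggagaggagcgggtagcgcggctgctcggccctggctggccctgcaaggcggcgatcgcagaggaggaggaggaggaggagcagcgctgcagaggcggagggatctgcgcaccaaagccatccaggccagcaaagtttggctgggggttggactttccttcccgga

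The Ski window held 7 matches to the GC-rich Smad motif, some of them overlapping each other, and 0 to the other 3 motifs. It was 87.6% G or C with 53 CpG dinucleotides, against medians of 52.4% and 6 over all 32851 windows of the same length. The Tgfb1 window held 1 match to the GC-rich Smad motif and was 75.2% G or C. Tgfbr2 had 1 match to the Smad half-site at 58.4% G or C, and Smad3 had 0 matches to the 4 motifs at 69.2%. Of all windows 32.0% held the GC-rich Smad motif, 42.2% the Smad half-site, 12.0% the Ets core and 9.99% the GATA core. These are matches of letters, and no binding was measured.

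Other genes of the pathway were read from 9 lists with 139 different genes, 101 of them measured. Of these 8 were called, 3 higher and 5 lower in GFP+, which is 7.92% beside the 7.49% of all rows. The median log2 difference was -0.075, with 66 genes below and 35 above 0. The calls fell on ligands and their handling, coreceptors and response genes. None fell on the Smads, their nuclear partners, the turnover machinery or the Smad-independent branch. With few calls per list and a share near that of all rows, a difference between branches was not tested.

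Ligand genes of the wider family had low levels. Of 26 listed, 7 matched a row, with overall means from 4.00 to 52.4 normalized counts, only 1 of them at least 50. All 7 had log2 differences below 0, with a median of -1.26. Whether such rows were kept only through their Tomato+ level is not known, so the shared direction is a description. The one called was Gdf3, a ligand of early embryonic development, at 76.9 in Tomato+ and 27.9 in GFP+ per the authors' deposited table (2.76-fold lower, adjusted p = 0.00542). Inha, the alpha chain of the inhibins that bind Tgfbr3, picked with its values in view, averaged 31.5 and 8.38 and did not pass (adjusted p = 0.128, the authors' deposited table).

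Among 13 measured genes of ligand latency and activation 2 were lower in GFP+ and 0 higher, with a median log2 difference of -0.45. Thbs1, thrombospondin, which can activate latent TGF-beta and is stored in platelets, averaged 368 in Tomato+ and 119 in GFP+ per the authors' deposited table (3.09-fold lower, adjusted p = 2.58e-17). Ltbp1, which holds latent TGF-beta in the matrix, averaged 81.6 and 16.8 per the authors' deposited table (4.86-fold lower, adjusted p = 2.95e-05).

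Of 10 other receptors and coreceptors only Eng was called, with a median log2 difference of -0.32 for the list. Eng encodes endoglin, the coreceptor most closely related to betaglycan, and averaged 1367 in Tomato+ and 989 in GFP+ per the authors' deposited table (1.38-fold lower, adjusted p = 0.000458). The coreceptor genes Tgfbr3 and Eng were thus both called lower in GFP+, with log2 differences of -1.73 and -0.47 in the authors' deposited table. Acvr1b, the activin type I receptor, picked with its values in view, had a log2 difference of -0.49 and just missed the threshold (adjusted p = 0.0533, the authors' deposited table).

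The other 4 Smads gave 0 calls at the authors' adjusted p under 0.05. Smad6, the inhibitory Smad of the BMP branch, averaged 145 in Tomato+ and 114 in GFP+, and Smad1 210 and 201, in the authors' deposited table. Of 13 nuclear partners 0 were called. Runx3 and Zeb2 had the smallest p-values of that list, with log2 differences of 0.48 and -0.36 in the authors' deposited table. The 23 measured genes of receptor and Smad turnover gave 0 calls. Strap (0.34) and Ctdsp2 (-0.30), which act on the receptors and on Smad phosphorylation, had the smallest p-values of that list in the authors' deposited table, with adjusted p = 0.0944 and 0.126. The 13 genes of the Smad-independent branch gave 0 calls, and Map2k3 and Rock1 had log2 differences of 0.19 and 0.21 in the authors' deposited table. Medians of these 4 lists lay between -0.073 and 0.029.

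Response genes went both ways. Of 18 measured TGF-beta response genes 2 were higher and 2 lower in GFP+. Their median log2 difference was -0.15, and it was -0.24 over genes averaging at least 50 and -0.30 with both fractions scaled to the same total. Thbs1, which is also in the latency list, and Fn1, fibronectin, were lower, the latter with 351 in Tomato+ and 215 in GFP+ per the authors' deposited table (adjusted p = 0.0225). Tsc22d1, a gene induced by TGF-beta, was higher, with 680 and 938 in the authors' deposited table (adjusted p = 0.0255). Myc, which TGF-beta is known to repress in many cells, was higher, with 1726 and 2594 in the authors' deposited table (adjusted p = 0.00103). Since the list holds both induced genes and Myc, the list's median does not give a direction of response. Cdkn1c, a kinase inhibitor of quiescent stem cells, picked with its values in view, averaged 308 and 219 and did not pass (adjusted p = 0.187, the authors' deposited table). Cdkn1a, another kinase inhibitor of the list, went the other way, with 25.2 and 38.4, and did not pass either (adjusted p = 0.673, the authors' deposited table). Smad7 and Skil, the response genes among the members, were not called. Of 5 measured BMP response genes Id2, an inhibitor of E proteins, was higher, with 56.4 in Tomato+ and 114 in GFP+ in the authors' deposited table (adjusted p = 0.0313), and 0 were lower. The median log2 difference of this list was 0.41, but 0.12 over its genes averaging at least 50 and 0.25 with both fractions scaled to the same total.

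**Figure D4:**
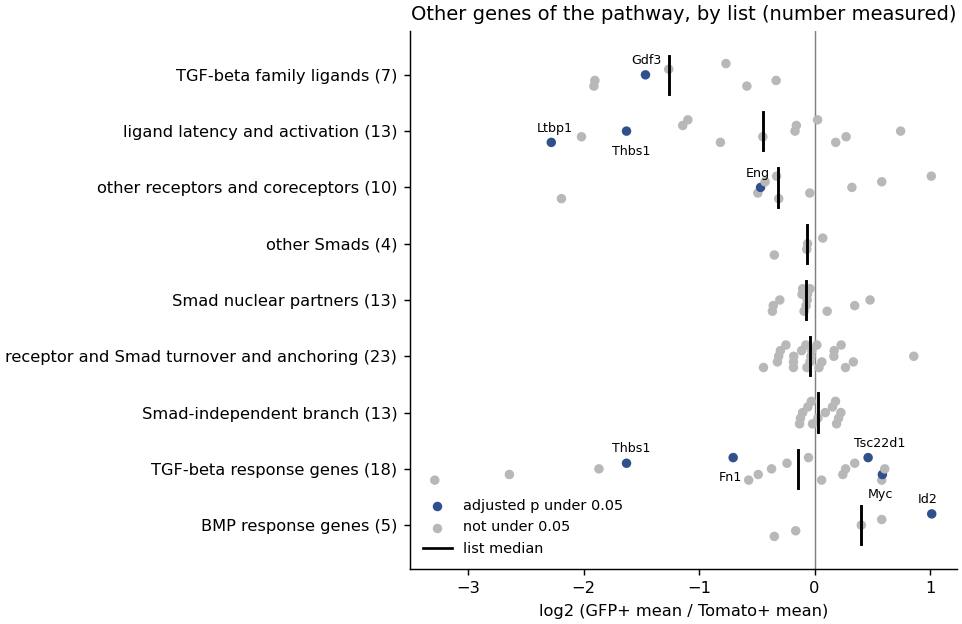
Log2 ratio of the GFP+ over the Tomato+ mean for the other measured pathway genes by list, 1 point per gene and list, blue and named where the authors' adjusted p is under 0.05, with a black bar at the list median; vertical offsets within a list only separate points. Ligand, latency and coreceptor lists have medians below -0.3, and the Smad, partner, turnover and Smad-independent lists have medians near 0 and no call. These lists differ in level. Genes averaging at least 50 were 1 of 7 ligand, 6 of 13 latency and 5 of 10 receptor and coreceptor genes. In the Smad, partner, turnover and Smad-independent lists they were 3 of 4, 12 of 13, 22 of 23 and 12 of 13.

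Markers of other cell types also differed between the fractions, in both directions. The megakaryocyte and platelet list had 15 measured genes, of which 11 were called lower and 0 higher in GFP+, and their summed means were 3489 in GFP+ and 6202 in Tomato+. Of 15 endothelial genes, Eng among them, 7 were lower and 1 higher, with sums of 5655 and 7594. Of 6 measured stellate and mesenchymal genes 0 were called. The list's sums were 279 and 202, but 4 of the 6 genes had a log2 difference below 0 and the median was -0.72. Pdgfrb, at 241 in GFP+ and 150 in Tomato+, makes up most of both sums (the authors' deposited table). Reln, also higher in GFP+, had 23.4 and 5.49, and Col1a2, picked with its values in view, had 6.75 and 24.6 (the authors' deposited table). In the opposite direction, 9 of 13 macrophage genes, 11 of 13 hepatoblast genes and 9 of 13 erythroid genes were called higher in GFP+, with 1 erythroid gene, Gata1, called lower. Log2 differences below 0 were found for 2 of the macrophage, 2 of the hepatoblast and 4 of the erythroid genes. The summed means of these lists, in the same order, were 2131 against 1189, 4048 against 2185 and 39764 against 13461. No measured gene of these lists was listed at 0 in either fraction. The part of such cells in the values of Tgfbr3, Ski, Thbs1, Ltbp1 and Eng was not tested. The stem cell list, with 13 of 16 genes called lower, summed to 11437 in GFP+ and 17748 in Tomato+.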

How the data were processed

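The measurements were 8 RNA-seq libraries, 4 per fraction. Trizol RNA and the NEBNext Ultra kit were used, per the labels' protocols. The submitters' processing notes list DESeq, bedtools, TopHat (TopHat2 2.0.11) and Bowtie2 2.2.1 with build mm9, and assign no role to any of them. Strand handling and filters are not stated there. Per the file headers, the authors' values are group means of normalized count signal (baseMean), a ratio (fold change of Tomato+ over GFP+), its log2 value, and a p-value with its adjusted p-value. The sign of the log2 value was turned, so that positive means higher in GFP+. The repeated header line was dropped, and the adjusted p equalled a Benjamini-Hochberg adjustment over all 14268 rows within 5.28e-08.

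No test was run here; the authors' adjusted p under 0.05 was read. The depth per library is unknown. The plan for counts per library could not be applied, since the file holds group means. Of 250 listed genes 200 matched a row, 4 through an older symbol. The named genes were all 10 members, the called genes of each pathway list (at most the 6 with the smallest p), or, where none was called, the 2 with the smallest p. For marker lists the rule also took the 2 genes with the smallest p, of which counts and sums are given instead. The members and lists were chosen with earlier results of these data known. The steps were tested on simulated data and run with Python 3.11.15, numpy 2.4.6, pandas 2.3.3 and scipy 1.17.1. Whether libraries are separate animals is not stated, so the authors' p-values may reflect technical spread only.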

Additional observations from a re-analysis of the deposited data

How the results depend on the processing

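No paired analysis was possible because single libraries have no values here, only fractions do. For the same reason other size factors, a filter on low counts per library and leaving out single libraries were not run, and depth is unknown. No member had another row of the same symbol. The count of 2 members called was the same at an adjusted p under 0.1 and under 0.01, and with the adjustment recomputed over rows with a mean of at least 50 or over 1 row per symbol. It was 1 when a log2 difference of at least 1 was required and 1 with Bonferroni, both stricter criteria. The 8 pathway calls became 5 at an adjusted p under 0.01, 4 with that minimum difference and 2 with Bonferroni, and 7 without genes that are also in a marker list, a choice made after seeing the data. Scaling both fractions to the same total moved the members' median from -0.039 to -0.20, and turned the sign of Tgfb1 (-0.13), Tgfbr2 (-0.076), Smad2 (-0.078) and the median of the Smad-independent branch (from 0.029 to -0.13). Centring on the median difference, taken over rows averaging at least 50, turned Tgfb1 (-0.0030) and that branch's median (-0.0014). None of these genes was called, and the shift exceeds their differences. Tgfbr3 and Ski kept their direction under both scalings and with pseudocounts of 1 and 10. Tgfbr1, Smad3, Smad4, Smad7 and Skil moved further below 0 at equal totals, to -0.18, -0.24, -0.19, -0.66 and -0.20. The equal-total scaling also moved list medians near 0, to -0.22 for the other Smads, -0.23 for nuclear partners and -0.20 for turnover genes. Over genes averaging at least 50 the latency list had -0.30 in place of -0.45.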

Other observations

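The authors' p-values did not follow the size of the difference alone. Tgfbr1 and Tgfbr2 had overall means of 615 and 605, and absolute log2 differences of 0.022 and 0.081, yet p was 0.509 and 0.841, respectively, in the authors' deposited table. Smad7, 1.42-fold lower in GFP+, had p = 0.393 in the authors' deposited table, and Smad2, with a difference of 0.079, had 0.553. What the spread between libraries contributed to these p-values is not known here. Ctgf, a response gene picked with its values in view, had the largest absolute difference of its list, averaging 5.09 in Tomato+ and 0.521 in GFP+, and did not pass (adjusted p = 0.745, the authors' deposited table).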
